A study of Mus musculus with 20 samples.

Results

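The genes of oxidative phosphorylation were examined in single thymic precursors of intraepithelial lymphocytes (IELPs), which are CD4-CD8αβ-TCRαβ+NK1.1- thymocytes that give rise to TCRαβ+CD8αα+ T cells of the gut epithelium. Members were chosen by name alone, as subunits of the respiratory chain and of ATP synthase, with cytochrome c and the assembly factors that share their prefixes. Pseudogenes and merged loci were left out. This gave 109 of the 25307 gene names in the tables, 96 encoded in the nucleus and 13 in the mitochondrial genome. The rule used no expression value, but it was set with earlier results of these data known.

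Cells were taken to come from 3 mice, 1 of each genotype, all of which carried TBGR, a transgene that reports Tbx21 (T-bet) as ZsGreen fluorescence. The study writes both of a mouse and of mice for these samples, so the number of animals is not certain. The TBGR mouse was otherwise wild type and 4 weeks of age by its labels. The TBGR C-mycD/DCd4 mouse carried 2 floxed C-myc alleles and a Cre transgene driven by the Cd4 promoter, which directs the deletion of C-myc to cells that have expressed Cd4 and their progeny, and the TBGR C-mycfl/fl mouse was its control with the floxed alleles and no Cre. Both C-myc mice were 2 weeks of age by their labels. CD4+ and CD8+ thymocytes had been depleted with beads before single cells were sorted into plates and prepared by CEL-Seq2, an assay that counts molecules at their 3′ end with a unique molecular identifier (UMI). The sort parted 4 populations by CD122, the beta chain shared by the IL-2 and IL-15 receptors, and by T-bet. Cells negative for both (CD122-T-bet-) and 3 CD122+ populations that were T-bet-, T-bet int or T-bet high each filled 2 libraries in the TBGR mouse. In the TBGR C-mycD/DCd4 mouse, T-bet- cells alone were sorted, as 2 libraries with and 2 without CD122. Each of 8 TBGR C-mycfl/fl libraries held 48 wells of each of 2 populations, both T-bet- populations in 4 of them and T-bet int with T-bet high cells in the other 4. The TBGR mouse differed from the C-myc mice in age and in sequencer, so levels were not compared between them, and where ratios from both are set side by side these differences cannot be told apart from genotype. The labels' design text calls the sorted cells NK1.1+, and the study's methods call them NK1.1-.

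In total, 1413 of 1920 wells held at least 2000 nuclear transcripts and were kept, 678 of 768 from the TBGR mouse, 470 of 768 from the TBGR C-mycfl/fl mouse and 265 of 384 from the TBGR C-mycD/DCd4 mouse. Sums over the cells of a library and population ranged from 94268 to 775264 transcripts. A group of 20 genes that tracks low-quality cells took 9.0% to 36.8% of these transcripts in TBGR, 23.3% to 63.7% in C-mycfl/fl and 30.9% to 41.9% in C-mycD/DCd4 libraries, with Gm10800 alone making up 82.3% of the group. Levels are therefore given both as CPM, transcripts per 1000000 nuclear transcripts, and as adjusted CPM, whose total leaves out these 20 genes. Of 190 pairs of libraries 90 shared all 96 cell barcodes and 100 shared none, and 0 had identical counts. Transcripts of Il2rb, which encodes CD122, lay between 0 and 31.7 adjusted CPM in CD122- and between 257 and 622 in CD122+ libraries. Tbx21 reached at most 3.3 in CD122- libraries and 46.8 to 235.6 in T-bet high libraries. In TBGR libraries it reached at most 3.0 in CD122+T-bet- and 45.5 to 60.8 in T-bet int cells. In C-mycfl/fl libraries these 2 populations overlapped in Tbx21, at 0 to 25.5 and 17.1 to 33.6. Myc overlapped between the C-myc genotypes, at 25.5 to 184.6 in C-mycfl/fl and 14.4 to 71.6 in C-mycD/DCd4 CD122+T-bet- libraries, and whether its 3′ tag lies in the deleted part is not stated. Since each genotype was taken as 1 mouse, neither cells nor libraries were treated as replicates. No test was made, and values of libraries and their overlap are given. Intervals are exact and cover counting error at 95% only. In these sums, fewer cells with many transcripts of a gene cannot be told apart from less RNA per cell.

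Oxidative phosphorylation passes electrons from NADH through complex I, or from succinate through complex II, to complex III, cytochrome c and complex IV, and the protons pumped on the way drive ATP synthase, complex V. Complex II is encoded wholly in the nucleus, while complexes I, III, IV and V combine nuclear subunits, translated in the cytosol and imported, with subunits made inside the mitochondrion. The mitochondrial genes are transcribed as long polycistronic RNAs that are then cut, and the transcription of nuclear genes is known to involve the factors NRF1, YY1 and ETS proteins. C-myc is known as an activator of genes for growth, ribosomes, glycolysis and mitochondrial biogenesis.

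Promoter stretches of 4 genes are shown, because these genes were among those lower in C-mycD/DCd4 cells and carry the motifs that are common among the members. Each is the 150 bases before the transcription start in RefSeq (GRCm38.p6), read 5′ to 3′ on the minus strand, with capitals for a match to GCGCANGCG (NRF1) or, in Atp5e, to CCGGAAG (ETS), on either strand. Cycs, cytochrome c, is at chr6:50566570-50566719. Atp5g2, a subunit c gene of ATP synthase, is at chr15:102671048-102671197. Ndufa8 of complex I is at chr2:36049339-36049488. Atp5e, the epsilon subunit of ATP synthase, is at chr2:174464102-174464251.
Cycs: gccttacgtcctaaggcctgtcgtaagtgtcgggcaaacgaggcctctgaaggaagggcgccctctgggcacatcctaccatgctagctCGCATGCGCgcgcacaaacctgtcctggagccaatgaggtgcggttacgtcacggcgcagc
Atp5g2: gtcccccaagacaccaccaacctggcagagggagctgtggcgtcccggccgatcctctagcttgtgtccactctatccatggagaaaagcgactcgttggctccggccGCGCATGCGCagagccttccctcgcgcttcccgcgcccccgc
Ndufa8: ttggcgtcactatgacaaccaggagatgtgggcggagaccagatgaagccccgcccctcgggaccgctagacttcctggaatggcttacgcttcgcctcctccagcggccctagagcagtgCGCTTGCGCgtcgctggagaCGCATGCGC
Atp5e: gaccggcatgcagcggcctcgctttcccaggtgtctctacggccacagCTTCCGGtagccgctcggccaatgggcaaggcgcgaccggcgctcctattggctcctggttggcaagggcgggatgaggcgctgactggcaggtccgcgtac

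All 96 nuclear members matched a RefSeq symbol, 3 of them through a synonym, and 81 had a promoter in the table, of 250 bases before to 50 after the start. GCGCANGCG was found in 25 of these 81 genes (30.9%) and in 7.0% of all 27025 genes with a promoter. CCGGAAG was found in 20 members (24.7% against 9.9% of genes) and the YY1 motif AAGATGGCG in 8 (9.9% against 1.6%). The E-box CACGTG, the letters bound by C-myc and other factors, was in 7 members (8.6% against 8.1%). None of the 4 motifs was in the windows of 33 members. A match to these letters is a description and not a binding site.

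Of the 13 mitochondrial members, 12 lie on the plus strand of the mitochondrial chromosome and mt-Nd6 (13552 to 14070) on the minus strand. The end of mt-Atp8 and the start of mt-Atp6, subunits of the membrane part of ATP synthase, share 43 bases at chrM:7927-7969 in GRCm38. They are shown because a read there belongs to both genes.
mt-Atp8 and mt-Atp6: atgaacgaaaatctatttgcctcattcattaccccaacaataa
mt-Nd4l and mt-Nd4 share 7 bases (10167 to 10173), and mt-Atp6 and mt-Co3 share 1 base (8607). The authors discarded reads that map to several loci, so it was counted how many 50-base words in the last 500 bases of each member also occur in a transcript of another gene (GENCODE vM21). This share was 95.3% for mt-Co1, 98.0% for mt-Nd3, 98.8% for mt-Nd4l, 99.3% for mt-Atp6, 99.8% for mt-Co3 and the whole of mt-Co2, and at most 17.7% for the other 7. Levels of those 6 genes are thus uncertain relative to the other mitochondrial genes, as is Atp5o (97.1%) among the nuclear members. Of the other nuclear members 51 had no shared word, while Atp5g2 had 47.3% and Atp5g1 45.9%.

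Over all 1413 cells, nuclear members gave 112092 and mitochondrial members 647860 transcripts. CEL-Seq2 counts 1 tag per molecule whatever its length, so these levels are numbers of molecules captured. All 96 nuclear members had at least 1 transcript and 87 had at least 100. Complex V made up 34.7% of the nuclear transcripts, complex I 25.8%, complex IV 24.1%, complex III 8.51%, complex II 2.76%, the assembly and accessory factors 2.37% and cytochrome c 1.72%. The highest nuclear members were Atp5g3 of the c ring of ATP synthase (5123 transcripts), Atp5b (5031) and Atp5a1 (4620), its catalytic beta and its alpha subunit, Atp5g2 (3892), and the complex IV subunits Cox8a (3771), Cox7c (3398) and Cox6a1 (3397). They were followed by Atp5c1 (3080), the gamma subunit of the rotor, Cox6c (2405) and Cox4i1 (2384). Among the mitochondrial members mt-Co1, the catalytic subunit of complex IV, was highest with 110679 transcripts and was found in 99.86% of cells. It was followed by mt-Atp6 (96734), mt-Nd4 (77346), mt-Co2 (66904), mt-Cytb (65094), mt-Nd5 (56150), mt-Nd2 (54592), mt-Nd1 (46874) and mt-Co3 (41301), and by the short genes mt-Nd3 (12946), mt-Nd4l (12602) and mt-Atp8 (5487). The minus-strand gene mt-Nd6 was lowest with 1151.

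Where complex IV has alternative subunits, the ubiquitous form gave nearly all transcripts. Cox6a1 made up 99.94% of Cox6a, Cox8a 99.89% of Cox8, Cox7b 99.90% of Cox7b and Cox6b1 98.60% of Cox6b transcripts, and the muscle form Cox7a1 made up 0.26% of the Cox7a family beside Cox7a2 (39.47%) and Cox7a2l (60.28%), a factor of supercomplex assembly. The genes Cox6a2, Cox7a1, Cox7b2, Cox8b and Cox8c were each seen in fewer than 1% of cells.

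The maturing cells of the TBGR mouse showed most nuclear OXPHOS transcripts in the T-bet int stage and fewest in the CD122-T-bet- and T-bet high stages. The nuclear sum was 10284 and 8671 CPM in CD122-T-bet-, 13443 and 12380 in CD122+T-bet-, 15311 and 15419 in T-bet int, and 10733 and 10807 in T-bet high libraries. In adjusted CPM these were 13942 and 13722, 15728 and 14958, 17045 and 16945, and 11803 and 13203. On the adjusted scale neighbouring stages did not overlap, and T-bet high cells were lowest of all. The mitochondrial sum followed another order, with adjusted values of 98880 and 109489 in CD122-T-bet-, 121390 and 118588 in CD122+T-bet-, 105707 and 106968 in T-bet int and 90196 and 92329 in T-bet high libraries. Its highest values were in CD122+T-bet- cells, its lowest again in T-bet high cells, and the CD122-T-bet- and T-bet int libraries overlapped.

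**Figure D1:**
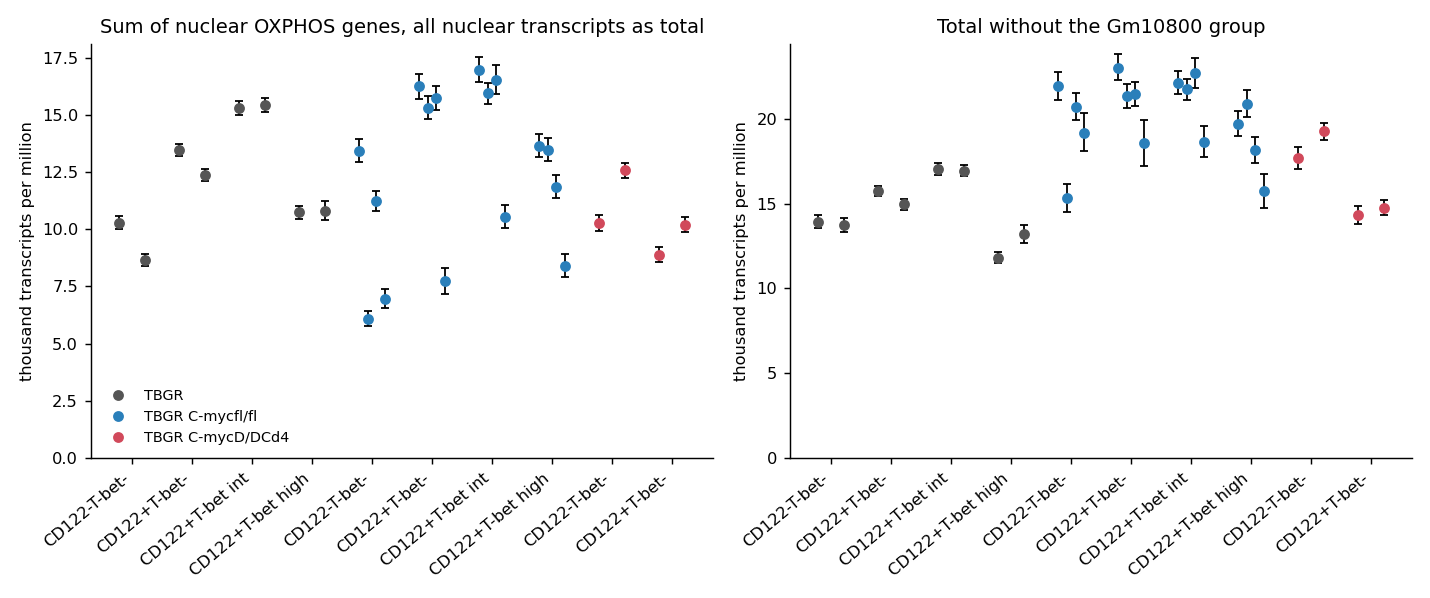
Summed transcripts of the nuclear members in CPM, divided by 1000, for each library (dots) and population, with exact 95% Poisson intervals as bars, in TBGR (grey), C-mycfl/fl (blue) and C-mycD/DCd4 (red). The left panel uses all nuclear transcripts as the total and the right panel leaves out the 20 genes of low-quality cells. In C-mycfl/fl CD122+T-bet- and T-bet int cells, library 4 stands low in the left panel and closer to its neighbours in the right one. In C-mycfl/fl CD122-T-bet- cells, library 2 is lowest in both panels. C-mycfl/fl libraries are numbered separately for the T-bet- populations and for T-bet int with T-bet high cells.

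**Figure D2:**
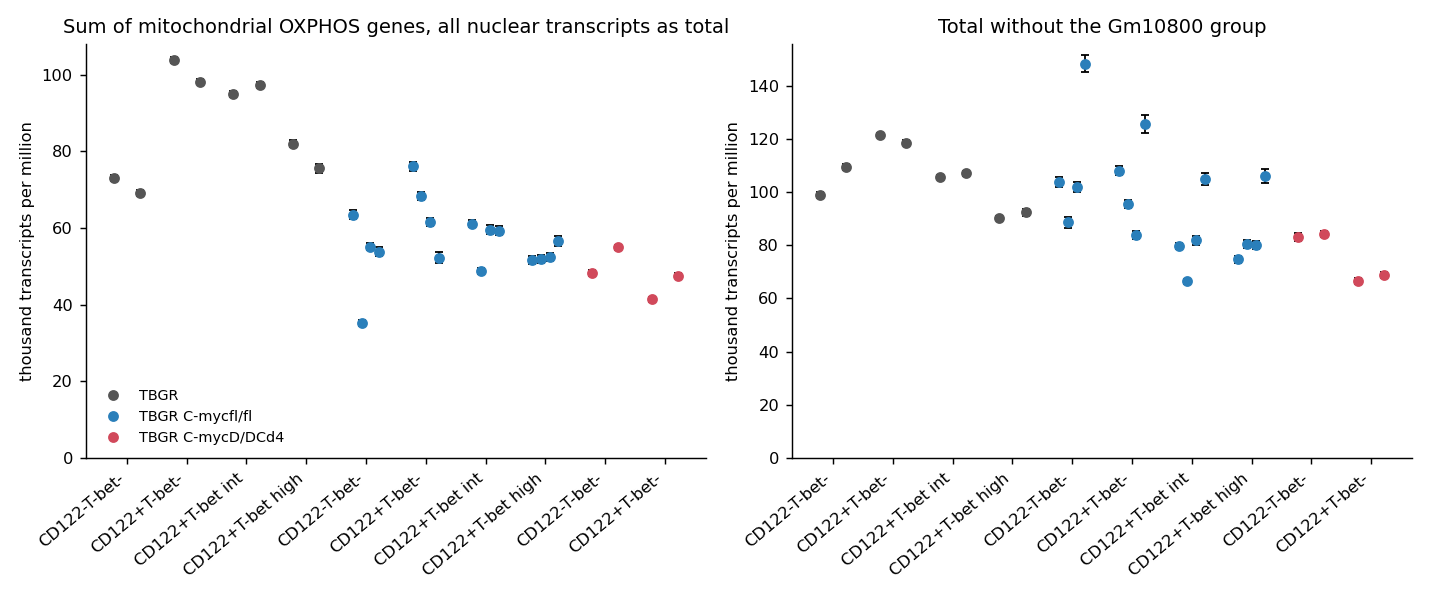
Summed transcripts of the 13 mitochondrial members in the same layout and on the same scales. In the right panel both C-mycD/DCd4 libraries of each population sit below all 4 C-mycfl/fl libraries of that population.

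A member was called higher or lower in a comparison when its log2 ratio, less the median ratio over every gene with 100 or more transcripts in both groups together, was at least 0.5 in size and the libraries, centred likewise, did not overlap. For C-mycfl/fl, where both populations shared each library, the ratio had to have the same sign in all 4 libraries. Within T-bet- cells of the TBGR mouse, CD122+ were compared with CD122- cells, and 10 of 79 nuclear members tested were higher, where 14.3% of all genes were called higher, and 1 was lower (14.3% of genes). Without centring, 30 members and 29.3% of genes were higher. The median of all genes was itself moved by 0.28 on the log2 scale, and the members' median ratio relative to it was 0.12. Those higher included Sdhd (log2 ratio 0.90), which anchors complex II in the membrane, Cox7a2 (0.80), Cox5b (0.74) and Cox8a (0.64) of complex IV, Uqcr10 (0.64) of complex III, and Ndufs7 (0.77), an iron-sulfur subunit, with Ndufa1 (0.66) and Ndufb7 (0.63) of complex I. Cox7a2 stood at 148.5 and 124.3 adjusted CPM in CD122-T-bet- and at 235.4 and 238.6 in CD122+T-bet- libraries. Sdhb, the iron-sulfur subunit of complex II, was the member called lower (-0.73), at 162.5 and 210.3 against 114.7 and 104.5 adjusted CPM, so that subunits of 1 complex were called in opposite directions. Mitotic cells, those with at least 2 transcripts of 8 mitotic genes, made up 4.6% of the CD122- and 45.2% of the CD122+ cells compared here, and 57.9% of T-bet int cells. With mitotic cells left out, 4 of 60 members were higher (12.6% of genes).

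From CD122+T-bet- to T-bet int cells, 8 of 81 nuclear members were higher (10.2% of genes) and 1 lower (12.8%), with a median of 0.21. The largest ratios were those of Ndufa9 (0.82), Ndufa4 (0.73), a subunit named for complex I and grouped here with complex IV, Cox6c (0.63) and Atp5l (0.55). Cox6c read 277.7 and 266.5 adjusted CPM in CD122+T-bet- and 406.5 and 408.3 in T-bet int libraries. The member called lower was Sdhc (-0.61), the other membrane anchor of complex II. mt-Atp8 was called higher (1.20), but its CD122-T-bet- libraries read 246.6 and 1316.1 adjusted CPM, a spread between libraries of 1 population that was larger than the step from 532.7 and 587.0 in CD122+T-bet- to 1427.1 and 1028.7 in T-bet int cells.

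T-bet high cells stood apart from T-bet int cells most clearly. Of 76 nuclear members tested 27 were called lower, where 19.1% of all genes were, and 0 were called higher (17.9% of genes). The members' median was -0.39, 67 of 76 lay below the median of all genes, and the median of all genes was moved by -0.13. All complexes took part, with 12 of 35 members of complex I called lower, 2 of 4 of complex II, 3 of 9 of complex III, 4 of 12 of complex IV and 6 of 15 of complex V. Sdhd had the largest change and was 3.22-fold lower (-1.69), at 111.3 and 137.3 adjusted CPM in T-bet int and 21.0 and 68.0 in T-bet high libraries. Its libraries did not overlap, but the T-bet high values differed widely from each other. Ndufv3 of the NADH-binding module of complex I was 2.37-fold lower, at 136.6 and 168.5 against 63.0 and 52.3 adjusted CPM. Cox7a2 was 2.08-fold lower, at 226.0 and 234.6 against 107.3 and 94.2, so its level in T-bet high cells lay below that of CD122-T-bet- cells. Ndufb8 (-1.06), Ndufs8 (-1.06), Uqcr10 (-1.13), Ndufa5 (-0.92) and Cox6c (-0.92) were lower as well. The abundant ATP synthase genes Atp5a1 (-0.77), Atp5g3 (-0.62) and Atp5b (-0.59) moved less. Atp5b read 754.0 and 656.8 adjusted CPM in T-bet int and 431.6 and 455.3 in T-bet high libraries.

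The mitochondrial members changed less than the nuclear ones in this step. Of 13, 12 lay below the median of all genes and mt-Nd4l alone was called lower (-0.72), at 1914.6 and 2139.0 against 1175.9 and 1109.4 adjusted CPM. Sums of nuclear members were 0.720-fold and of mitochondrial members 0.854-fold the T-bet int value in adjusted CPM. Mitotic cells made up 57.9% of T-bet int and 3.4% of T-bet high cells. With these cells left out of all populations, 9 of 44 nuclear members were lower (12.5% of genes), all 9 among the 27, and the log2 ratio of the nuclear sum was -0.32 in place of -0.47. Transcripts of 4 NKT cell markers (Zbtb16, Klrb1c, Cd4 and Il4) also differed, with all 4 present in both populations. They summed to 94.5 to 198.1 adjusted CPM in T-bet int and 659.4 to 753.6 in T-bet high libraries. CD122-T-bet- libraries had 780.7 to 952.8, with Klrb1c at 0. The study reports Klrb1c as a gene of its cluster of T-bet high IELPs. The part of these transcripts in the result was not tested. One library decided part of the count, which was 16 without T-bet high replicate 1 and 41 without replicate 2. With 1 T-bet high library left, libraries of any gene overlap less readily, and the shares of all genes are not given here. Replicate 2 kept 55 of 96 wells, and its barcodes without a cell held 4.3% as many nuclear transcripts as its wells.

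**Figure D3:**
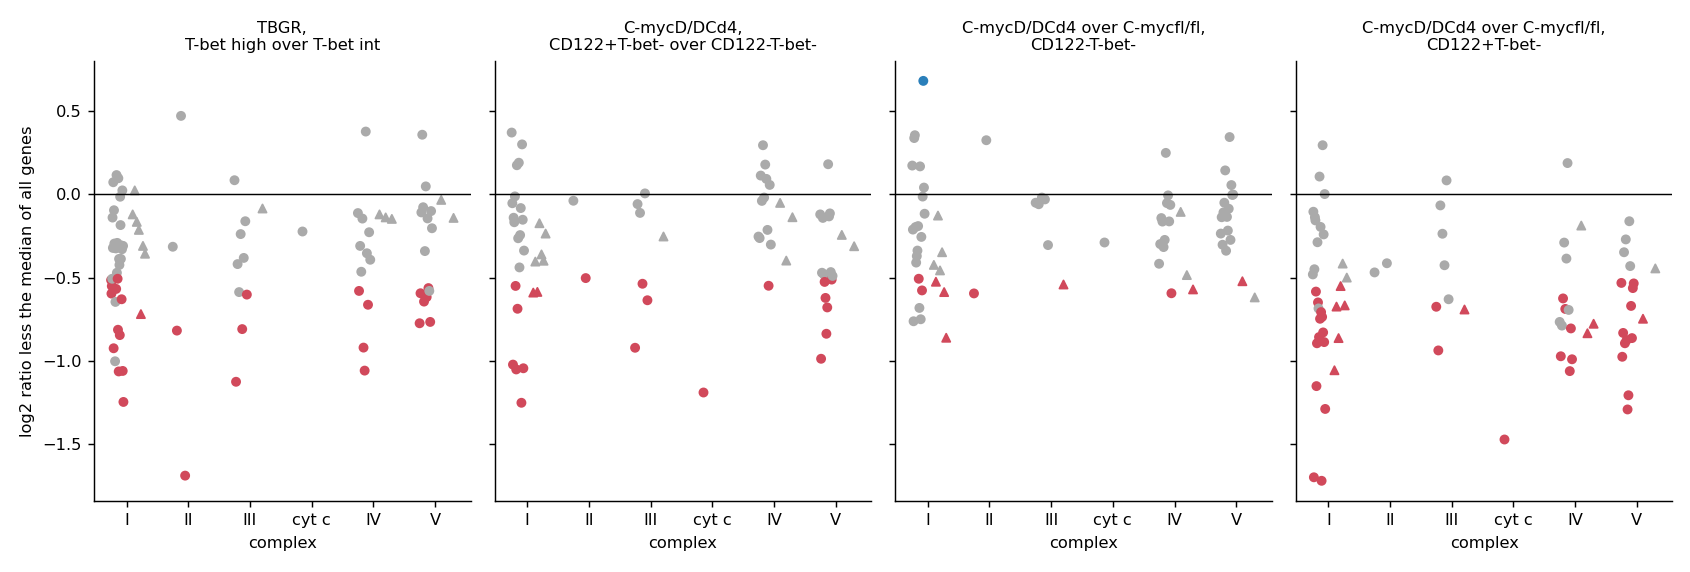
Centred log2 ratio of each member by complex (I, II, III, cytochrome c, IV and V) in 4 comparisons, with dots for nuclear and triangles for mitochondrial members, red for called lower, blue for called higher and grey for not called. In T-bet high over T-bet int cells and in C-mycD/DCd4 over C-mycfl/fl CD122+T-bet- cells, members called lower are found in most complexes and 0 nuclear members are called higher.

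Within the subunit c genes, whose mature proteins are known to be identical, T-bet high TBGR cells had another mixture. Atp5g3 made up 34.19% (interval 29.71 to 38.88) and 34.67% (28.08 to 41.73) of the transcripts of Atp5g1, Atp5g2 and Atp5g3 in T-bet high libraries, against 43.12% and 43.15% in T-bet int, 45.19% and 49.81% in CD122+T-bet- and 42.50% and 44.99% in CD122-T-bet- libraries. Its share was thus lowest in T-bet high libraries, without overlap of the values of libraries. This does not hold for all of their counting intervals. Atp5g2 rather than Atp5g3 was the most abundant of these genes there, at 48.37% and 40.70%. In C-mycfl/fl T-bet high cells this mixture was not seen, and Atp5g3 made up 47.12% to 53.38%. Atp5g1 gave 26.14% and 24.64% in CD122-T-bet- and 17.78% and 16.26% in CD122+T-bet- libraries of the TBGR mouse. Over all cells the shares were 46.7% for Atp5g3, 35.5% for Atp5g2 and 17.8% for Atp5g1, and part of the ends of Atp5g1 and Atp5g2 is shared with other transcripts, as given above.

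**Figure D4:**
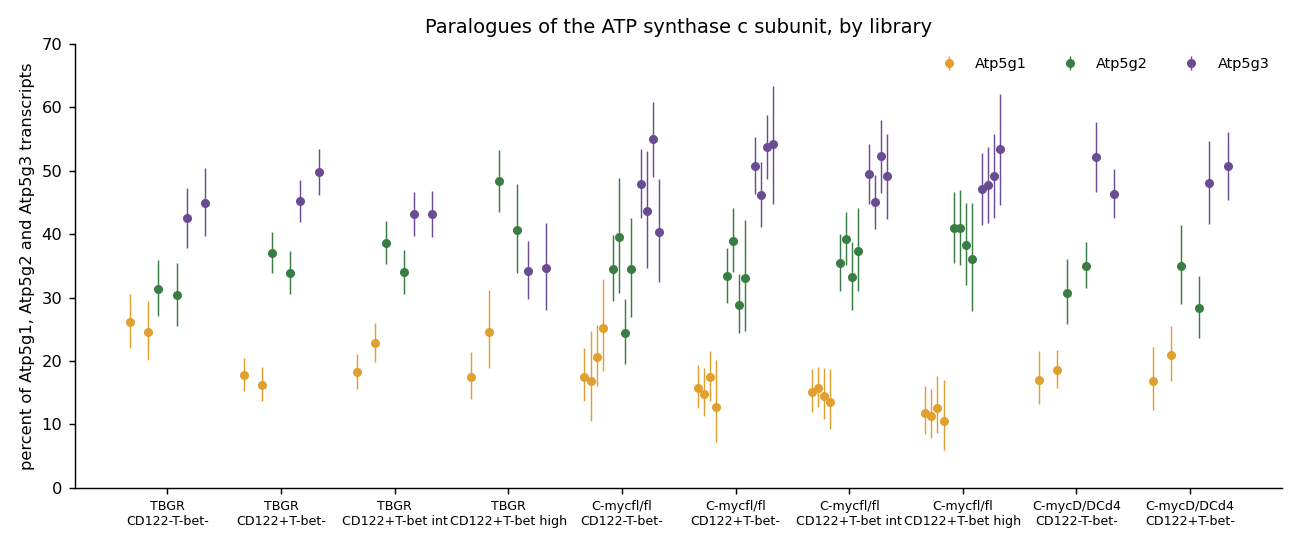
Percent of subunit c transcripts from Atp5g1, Atp5g2 and Atp5g3 in each library, with exact 95% binomial intervals. In both TBGR T-bet high libraries Atp5g3 is near 34%, below its share in every other TBGR library.

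The C-mycfl/fl mouse allowed the same stages to be compared within libraries. Its nuclear sum in CD122-T-bet- cells was 13415, 6084, 11222 and 6964 CPM and in CD122+T-bet- cells 16240, 15311, 15744 and 7733, higher in CD122+ cells in all 4 libraries (log2 ratio 0.63). In adjusted CPM the same sums were 21917, 15330, 20710 and 19186 against 23023, 21343, 21473 and 18561, the ratio was 0.14, and the libraries no longer had the same sign. The share of the 20 genes of low-quality cells moved with the population, as did mitotic cells (25% and 59.0%), and their part in the result was not tested. Of 59 nuclear members 6 were called higher (8.3% of genes) and 1 lower (10.3%). The median of all genes was moved by 0.55, and without centring the split was 22 higher and 0 lower, where 36.2% of genes were higher and 4.86% lower. Ndufa1 (0.92), Cox7a2 (0.71), Cox8a (0.69) and Uqcr10 (0.58) were called higher in this mouse as well as in the TBGR mouse, with Ndufv3 (0.59) and Atp5j (0.54) beside them. Cox8a was above its CD122-T-bet- value in each library, at 771.1, 769.6, 830.6 and 814.8 against 530.7, 328.2, 402.2 and 688.8 adjusted CPM. Ndufv2, which holds an iron-sulfur cluster in complex I, was called lower (-0.56). Over the 59 members tested in both mice, which share no library, 43 had the same sign, and their log2 ratios had a Pearson correlation of 0.519, against 0.618 over 1718 genes, as a description across genes that share depth and cell makeup. The mitochondrial sum had a log2 ratio of 0.37 in CPM and -0.12 in adjusted CPM, with libraries of both signs on either scale. Of 13 mitochondrial members 2 were called lower, mt-Atp8 and mt-Nd6, and 0 higher.

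Between T-bet high and T-bet int cells of the C-mycfl/fl mouse the nuclear sum was lower in all 4 libraries, at 22121, 21734, 22693 and 18647 adjusted CPM in T-bet int and 19714, 20901, 18134 and 15718 in T-bet high cells (log2 ratio -0.18). Of 61 nuclear members 4 were called lower (6.91% of genes) and 0 higher (9.27%), with a median of -0.11 after a shift of all genes of -0.18. They were Ndufv2 (-0.71), Uqcrq (-0.61) of complex III, Cycs (-0.60) and Atp5g1 (-0.56). Atp5g1 read 380.1, 392.5, 384.3 and 335.8 adjusted CPM in T-bet int and 269.1, 248.8, 244.0 and 218.5 in T-bet high cells, with no overlap. Of these, Uqcrq was also among the 27 members called lower in the TBGR mouse. Mitotic cells made up 64.7% and 46.4% of these populations. The mitochondrial sum had a log2 ratio of -0.09 in CPM and 0.06 in adjusted CPM, with libraries of both signs on either scale. Of 13 mitochondrial members mt-Nd6 alone was called higher (0.84) and 0 were called lower.

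The C-myc genotypes were compared in both T-bet- populations, the question being what the deletion of C-myc changes in these precursors. In CD122+T-bet- cells, the nuclear sum was 14310 and 14769 adjusted CPM in C-mycD/DCd4 and 23023, 21343, 21473 and 18561 in C-mycfl/fl libraries, 0.673-fold, with no overlap. In CPM, without the adjustment, the values were 8893 and 10206 against 16240, 15311, 15744 and 7733, and overlapped through C-mycfl/fl library 4. The mitochondrial sum was 66558 and 68823 against 107928, 95353, 83881 and 125474 adjusted CPM, 0.694-fold, and did not overlap on either scale. Of 62 nuclear members 33 were called lower, where 23.9% of all genes were, and 0 were called higher, where 21.5% were. The members' median was -0.66 and 57 of 62 lay below the median of all genes. Without centring, 15 members were called lower (12.7% of genes), and with every cell thinned to 2000 transcripts, 11 of the 19 that could still be tested (27.4% of genes). When libraries were compared by adjusted CPM, 28 of the 33 also did not overlap, the exceptions being Atp5o, Cox6c, Cycs, Ndufb11 and Ndufs6.

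Complex V and complex I held most of these members, with 11 of 15 and 13 of 25 called lower, beside 6 of 12 of complex IV, 2 of 7 of complex III and 0 of 2 of complex II. Ndufc2, a small subunit of the membrane arm of complex I, differed most and was 3.29-fold lower (log2 ratio -1.72). It read 477.1, 353.8, 406.1 and 407.4 adjusted CPM in C-mycfl/fl and 127.8 and 136.9 in C-mycD/DCd4 libraries, which left a wide gap. Ndufa12 was 3.25-fold lower, at 509.7, 273.1, 283.0 and 203.7 against 138.0 and 93.7, and Ndufa8 was 2.22-fold lower, at 254.9, 180.0, 196.9 and 229.2 against 117.5 and 90.1. Other members of complex I called lower were Ndufv3 (-1.29), Ndufab1 (-0.89), the acyl carrier protein that is also part of mitochondrial fatty acid synthesis, and Ndufs3 (-0.83).

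Cycs, the mobile carrier between complexes III and IV and a trigger of apoptosis once released, was 2.77-fold lower (-1.47). It read 686.2, 484.1, 479.9 and 178.2 adjusted CPM in C-mycfl/fl and 194.2 and 205.3 in C-mycD/DCd4 libraries, so that C-mycfl/fl library 4 alone overlapped. In complex III, Uqcr10 (-0.94) and Cyc1, cytochrome c1, were called lower. In complex IV, Cox7c was 2.09-fold lower, at 869.2, 713.7, 756.8 and 611.1 against 398.6 and 389.0, and Ndufa4 (-0.99), Cox5a (-0.97), Cox8a (-0.81) and Cox6a1 (-0.63) went the same way.

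In ATP synthase all 3 subunit c genes were called lower. Atp5g3 was 2.31-fold lower, at 1601.1, 1067.5, 1273.6 and 1629.5 adjusted CPM against 582.6 and 644.8, and Atp5g2 was 2.45-fold lower, at 1052.2, 899.9, 683.0 and 993.0 against 424.2 and 360.2. Atp5g1 (-0.88) followed, and their mixture in C-mycD/DCd4 cells overlapped that of C-mycfl/fl cells. Atp5b (-0.98) read 980.3, 974.4, 1070.6 and 891.2 against 485.5 and 587.2 adjusted CPM. Atp5a1 (-0.53) changed least of the abundant subunits that were called. In complex II, Sdha (-0.47) and Sdhb (-0.41) were not called.

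Of the 13 mitochondrial members 9 were called lower and all 13 lay below the median of all nuclear genes. mt-Nd1 of the membrane arm of complex I was 2.08-fold lower (-1.06), at 10168.7, 8384.7, 6841.9 and 9217.1 adjusted CPM in C-mycfl/fl and 4574.2 and 4239.8 in C-mycD/DCd4 libraries. mt-Nd3 (-0.86), mt-Co2 (-0.83), mt-Co3 (-0.78), mt-Atp6 (-0.75), mt-Cytb (-0.69), mt-Nd2 (-0.67), mt-Nd5 (-0.67) and mt-Nd4 (-0.55) followed. mt-Nd6 (-0.50), mt-Atp8 (-0.45) and mt-Nd4l (-0.42) were not called. mt-Co1 changed least (-0.19), at 17762.5, 15019.2, 14286.8 and 14716.7 against 14136.5 and 15031.9, which overlapped. Its share of mitochondrial member transcripts was 21.24% and 21.84% in C-mycD/DCd4 against 11.73% to 17.03% in C-mycfl/fl libraries, while that of mt-Nd1 was 6.16% and 6.87% against 7.35% to 9.42%. Most words in the 3′ end of mt-Co1 occur in other transcripts too, as given above.

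**Figure D5:**
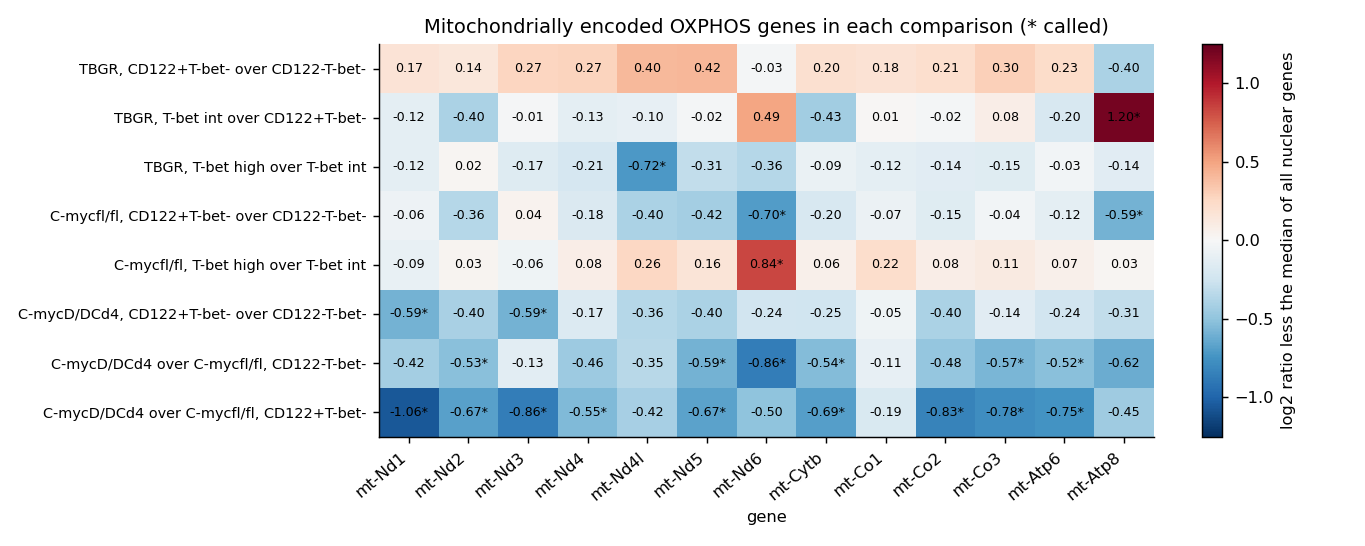
Log2 ratios of the 13 mitochondrial members, less the median of all nuclear genes, in each of the 8 comparisons, with an asterisk where a member was called. In CD122+T-bet- cells of C-mycD/DCd4 over C-mycfl/fl, 9 members carry one, and mt-Co1 is closest to 0.

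Other features moved with genotype in these cells. Mitotic cells made up 8.0% of C-mycD/DCd4 and 59.0% of C-mycfl/fl CD122+T-bet- cells. Without mitotic cells 12 of 31 nuclear members were called lower (20.1% of genes), 10 of them among the 33, the median was -0.64, and the nuclear and mitochondrial sums had log2 ratios of -0.45 and -0.49 in adjusted CPM. Transcripts of 3 γδ T cell markers, all present in both genotypes, summed to 345.8 and 495.7 adjusted CPM in C-mycD/DCd4 and 25.5 to 196.1 in C-mycfl/fl libraries. Of 8 markers of CD4+CD8+ thymocytes, summed at 183.7 and 209.5 against 25.5 to 74.5, Rag2 and Ptcra were at 0 in C-mycD/DCd4 and Rag1, Rag2 and Dntt in C-mycfl/fl cells. The sort took TCRαβ+ cells after bead depletion of CD4+ and CD8+ cells. The part of these transcripts in the result was not tested.

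Counts for the pathways next to OXPHOS in the same comparison are set against the 23.9% of all genes called lower. Of 68 cytosolic ribosomal protein genes tested 63 were called lower, with a median of -1.19, and of 11 mitochondrial ribosomal protein genes 7 (-1.16), Mrpl42 among them (-1.92). In glycolysis 7 of 8 were lower with a median of -1.41, among them Pgam1 (-1.90), Aldoa (-1.80) and Ldha, lactate dehydrogenase A. Nearer to the share of all genes, the TCA cycle with pyruvate dehydrogenase had 3 of 10 lower (-0.57), namely Pdhb, Cs and Mdh2. Of carriers of the mitochondrial membranes 3 of 8 were lower, led by the ADP/ATP carrier Slc25a5 (-1.39), and of protein import 3 of 5, Tomm5 (-1.35), Tomm20 (-1.32) and Tomm7. Of 4 genes that maintain or express the mitochondrial genome 1 was, the RNA-binding Lrpprc (-1.33). The OXPHOS members' median of -0.66 thus lay between that of the TCA cycle and those of glycolysis and ribosomes, without a test of the difference. Promoters of the members called lower held GCGCANGCG in 10 of 29 and CACGTG in 4 of 29, and those of members not called in 5 of 23 and 1 of 23. CCGGAAG was in 6 of 29 called lower and 6 of 23 not called, and AAGATGGCG in 3 of 29 and 2 of 23.

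In CD122-T-bet- cells the genotypes differed less. The nuclear sum was 17681 and 19259 adjusted CPM in C-mycD/DCd4 and 21917, 15330, 20710 and 19186 in C-mycfl/fl libraries, which overlapped (log2 ratio -0.08), and in CPM they overlapped too (0.29). The mitochondrial sum was 83058 and 84163 against 103709, 88567, 101767 and 148197 adjusted CPM (-0.35), without overlap. This held on the adjusted scale alone, which was chosen after seeing the data, since in CPM the libraries overlapped (0.02), and without mitotic cells the adjusted ratio was -0.05. Of 55 nuclear members 4 were called lower (7.19% of genes) and 1 higher (9.48%), after a shift of all genes of 0.45. Without centring, 0 were lower (1.51% of genes) and 3 higher (27.8%). Those lower were Sdha (-0.60), the flavoprotein of complex II, Ndufa4 (-0.59), Ndufs3 (-0.58) and Ndufb4 (-0.51), which overlapped in adjusted CPM. Sdha read 178.5 and 170.7 against 269.3, 234.4, 197.0 and 319.2. Ndufs5 was called higher (0.68), at 172.7 and 134.6 against 118.8, 58.6, 65.7 and 100.8 adjusted CPM. All 13 mitochondrial members lay below the median of all genes and 6 were called lower, mt-Nd6 (-0.86), mt-Nd5 (-0.59), mt-Co3 (-0.57), mt-Cytb (-0.54), mt-Nd2 (-0.53) and mt-Atp6 (-0.52). These ratios are relative to the median of nuclear genes, which was itself moved by 0.45. The mitochondrial sum in CPM, which is not centred, had a ratio of 0.02. The γδ T cell markers were at 712.3 and 1243.6 against 213.4 to 1058.4 adjusted CPM here, and mitotic cells made up 32.0% and 25%. Of 53 nuclear members tested in both populations, 45 had a lower ratio of C-mycD/DCd4 over C-mycfl/fl in CD122+T-bet- than in CD122-T-bet- cells, with a median difference of -0.52, against 56.1% of 1608 genes and -0.14. This difference between populations was not tested.

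Within the C-mycD/DCd4 mouse, summed OXPHOS transcripts were fewer in CD122+ than in CD122- cells, but as a mean over cells of each cell's share the nuclear ratio was reversed (0.13, against -0.28 for the sums in CPM). These libraries are those of the genotype comparisons above, so the result is not independent of them. The nuclear sum of 14310 and 14769 adjusted CPM lay below 17681 and 19259 (-0.36), and the mitochondrial sum of 66558 and 68823 below 83058 and 84163 (-0.30). Of 56 nuclear members 18 were called lower (21.1% of genes) and 0 higher (24.1%), with a median of -0.25. Ndufc2 was 2.38-fold lower, at 345.5 and 315.1 adjusted CPM in CD122-T-bet- and 127.8 and 136.9 in CD122+T-bet- libraries. Cycs was 2.28-fold lower, at 495.1 and 456.3 against 194.2 and 205.3. Ndufab1 (-1.05), Ndufs5 (-1.04), Ndufa12 (-1.02), Atp5b (-0.99), Cyc1 (-0.92) and Atp5g2 (-0.84) followed. mt-Nd1 and mt-Nd3 were called lower (both -0.59). Mitotic cells were 32.0% of the CD122- and 8.0% of the CD122+ cells, and without them the nuclear sum was higher in CD122+ cells (0.15 adjusted, 0.66 in CPM). Then 2 of 28 members were called higher (19.8% of genes) and 1 lower (15.9%), and the mitochondrial ratio was -0.51 adjusted and 0.003 in CPM. The count of 18 was 7 without CD122+T-bet- replicate 1 and 11 without CD122-T-bet- replicate 2. The shares of all genes in these settings are not given here.

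Single cells of a library varied around these sums. The median share of nuclear members per cell, in the total without the 20 genes of low-quality cells, ranged from 0.890% to 2.32% over libraries and populations, and that of mitochondrial members, per 100 such transcripts, from 6.60 to 13.4. Within libraries the nuclear and mitochondrial shares of a cell had Spearman correlations from -0.336 to 0.633, over 22 to 94 cells, so that no common relation was seen. The nuclear share and the share of the 20 genes had correlations from -0.896 to -0.036, the last of these, near 0, over the 24 cells of C-mycfl/fl T-bet high library 4. These are descriptions over cells that share a library and differ in depth.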

How the data were processed

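Transcripts of 1920 sorted single cells were measured by CEL-Seq2 in 20 libraries. The authors demultiplexed reads with bcl2fastq 2.17.1.14, aligned the right mate in sense direction to GENCODE VM9 transcripts, with loci that overlap merged, using BWA 0.6.2-r126, and discarded reads mapping to several loci. The deposited values are estimated counts, that is UMI counts of 6-base identifiers corrected for repeated draws among 4096, without normalization. Values were rounded to integers before summing. Totals hold neither mitochondrial genes nor spike-ins, and the 96 barcodes without a cell of each table were kept out of all sums. The population of each well was taken from the note deposited with the tables. Cells were sorted singly, so no doublets were called. Transcripts were summed per library and population, with 0.5 added for ratios. The 20 genes of low-quality cells correlate above 0.65 with Kcnq1ot1, Gm10715, Gm42418 or Gm10800, and the study removed such genes. Here they left the total of adjusted CPM only, a choice made after seeing the data.

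Named were all mitochondrial members, up to 8 nuclear members called per direction and comparison, paralogues with at least 100 transcripts, the 10 most abundant nuclear members and up to 3 called genes of each other list. Members, lists and comparisons were chosen with earlier results of these data known. Python 3.11.15, numpy 2.4.6, pandas 2.3.3, scipy 1.17.1 and matplotlib 3.10.9 were used, and calculations were tested on simulated data. No columns from outside the series were found, and no comparisons made by the authors were used. Alternatives included other minima per cell and per gene, TMM scaling, removal of mitotic cells, thinning to 2000 transcripts and leaving out each library.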

Additional observations from a re-analysis of the deposited data

Results flagged for a closer look

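In groups of 4 libraries, 4 of the 20 sets of values tested held a library apart from the others by Dixon's criterion. Chance gives about 1 in 20 for a single set, but these sets shared libraries and are not independent. All 4 were found in CPM and none in adjusted CPM. The C-mycfl/fl mouse alone had populations with 4 libraries. The nuclear OXPHOS sum of CD122+T-bet- library 4 was lowest at 7733 CPM, with the others at 15311 to 16240. There the genes of low-quality cells took 58.3% of transcripts, against 26.7% to 29.5% in the others. The adjusted sum was 18561, with the others at 21343 to 23023. The nuclear sum of T-bet int library 4 was lowest at 10543 CPM, with the others at 15943 to 16972. There these genes took 43.5% of transcripts, against 23.3% to 27.2% in the others. The mitochondrial sum of T-bet int library 2 was lowest at 48694 CPM (others 59309 to 61142), and that of T-bet high library 4 was highest at 56613 CPM (others 51707 to 52390).

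Within T-bet- cells, the ratio of CD122+ over CD122- cells went opposite ways in the C-mycD/DCd4 and TBGR mice. The log2 ratio of the nuclear sum was -0.28 in C-mycD/DCd4 and 0.45 in TBGR libraries, and that of the mitochondrial sum -0.22 and 0.51, with every library of a mouse on its side. In the C-mycfl/fl mouse, of the age and sequencer of C-mycD/DCd4, they were 0.63 and 0.37 in CPM. In adjusted CPM the C-mycfl/fl ratios were 0.14 and -0.12. Its libraries had both signs on that scale, and for the mitochondrial ratio in CPM as well. The C-mycD/DCd4 nuclear ratio was reversed without mitotic cells (0.66) and as a mean over cells (0.13), and the mitochondrial one was 0.003 without mitotic cells. The difference was not tested, and between TBGR and C-mycD/DCd4 genotype, age and sequencer cannot be told apart.

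The 96 barcodes without a cell held member transcripts above the floor of 3 in all 20 libraries. In TBGR T-bet high library 2 they held 185 nuclear and 2792 mitochondrial member transcripts, against 9 to 57 and 90 to 825 in the other libraries. All their nuclear transcripts came to 4.3% of those in its wells, against 0.2% to 0.7% in the other libraries. The comparison of T-bet high with T-bet int cells in the TBGR mouse uses this library.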

How the results depend on the processing

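No paired analysis was possible because the results come from no test that a block could enter. Populations that shared C-mycfl/fl libraries were compared within each library. Of the 16 ratios of sums, those without overlap of libraries, or with the same sign in all 4 within libraries, kept their direction when a library was left out. The mitochondrial ratio of C-mycD/DCd4 over C-mycfl/fl in CD122-T-bet- cells, where libraries overlapped, did turn. It was 0.02 in CPM, and without C-mycD/DCd4 replicate 2 the values were 48260 against 51685 CPM. Comparisons are numbered as TBGR CD122+ over CD122- within T-bet- cells (1), T-bet int over CD122+T-bet- (2) and T-bet high over T-bet int (3), C-mycfl/fl CD122+ over CD122- (4) and T-bet high over T-bet int (5), C-mycD/DCd4 CD122+ over CD122- (6), and C-mycD/DCd4 over C-mycfl/fl in CD122- (7) and CD122+ (8) T-bet- cells. These values moved, and causes were not tested beyond what an alternative removes.
With a total without the 20 genes of low-quality cells, a choice made after seeing the data, the nuclear log2 ratio was 0.15, 0.15, -0.47 and -0.18 in comparisons 1, 2, 3 and 5 (in place of 0.45, 0.25, -0.51 and -0.33), and the mitochondrial one 0.21, -0.18 and -0.12 in comparisons 1, 2 and 4 (0.51, -0.07 and 0.37). It was also 0.14 (0.63) for nuclear members in comparison 4 and, with the sign turned, 0.06 (-0.09) for mitochondrial ones in comparison 5. In comparison 7 the nuclear ratio was -0.08 (0.29), turned as well, and the mitochondrial one -0.35 (0.02). With the minimum of 2000 also counted without these genes, the nuclear ratio was 0.14, 0.15, -0.47, 0.021 and -0.17 in comparisons 1 to 5, and the mitochondrial one 0.21, -0.18, -0.13, 0.063 and -0.49 in comparisons 1, 2, 4, 5 and 7. Without mitotic cells in CPM, the nuclear ratio was -0.34, 1.24 and 0.66 (reversed) in comparisons 3, 4 and 6, and the mitochondrial one 0.035 (reversed), -0.37, -0.34, 0.003 (reversed) and -0.27 in comparisons 2, 3, 5, 6 and 8. With both changes, the nuclear ratio was 0.041, 0.086, -0.32, -0.15 and 0.15 (reversed) in comparisons 1, 2, 3, 5 and 6, and the mitochondrial one 0.25 and -0.51 in comparisons 1 and 6. As a mean over cells, the nuclear ratio was -0.49 in comparison 3 and 0.13 (reversed) in comparison 6, and minima of 1000 and 4000 gave -0.53 and -0.49 in comparison 3.

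Counts of nuclear members called in the leading direction (10, 8, 27, 6, 4, 18, 4 and 33) became 30, 13, 22, 9, 0 and 15 in comparisons 1, 2, 4, 5, 7 and 8 without centring, where shared scaling of a library enters the overlap. Cells thinned to 2000 transcripts, which leaves fewer transcripts and members to test, gave 3, 7, 1, 1, 3, 0 and 11 in all but comparison 2. Without mitotic cells the counts were 4, 9, 3, 1, 0 and 12 in comparisons 1, 3, 4, 6, 7 and 8. A ratio of 0.25 gave 24, 34 and 8 in comparisons 1, 2 and 5, and a minimum of 20 transcripts 16 and 12 in comparisons 2 and 4. Leaving out 1 library gave ranges of 9 to 15, 7 to 14, 16 to 41, 5 to 7, 1 to 6, 7 to 20, 0 to 10 and 24 to 37. The ends of over 1.5 times came without T-bet int replicate 1 in comparison 2 (14), T-bet high replicates 1 and 2 in comparison 3 (16 and 41), C-mycfl/fl replicate 3 in comparison 5 (1), C-mycD/DCd4 CD122+T-bet- replicate 1 and CD122-T-bet- replicate 2 in comparison 6 (7 and 11), and C-mycfl/fl replicate 2 and C-mycD/DCd4 replicate 2 of CD122-T-bet- cells in comparison 7 (10 and 0). These settings also change the calls among all genes, whose shares are not given here. The counts thus describe the dependence on settings and are not results about the members. Depth limits members under 100 transcripts, which were not tested, all 13 assembly and accessory factors among them in comparisons 3 to 8.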

Other observations

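The ribosomal RNA of the mitochondrion, mt-Rnr1 and mt-Rnr2 together, was captured at 0.416 to 0.588 transcripts per mitochondrial member transcript in TBGR, 0.505 to 1.10 in C-mycfl/fl and 1.33 to 1.69 in C-mycD/DCd4 libraries. The C-myc genotypes did not overlap in this ratio, in either T-bet- population. Mitochondrial over nuclear member transcripts stood at 6.20 to 7.98 in TBGR, 3.05 to 7.72 in C-mycfl/fl and 4.37 to 4.70 in C-mycD/DCd4 libraries. mt-Nd6 made up 0.05% to 0.11% of mitochondrial member transcripts in TBGR and 0.20% to 0.61% in the C-myc mice, whose age and sequencer differ.

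mt-Cytb made up 11.78% and 12.21% of mitochondrial member transcripts in TBGR CD122-T-bet- and 11.43% and 12.04% in CD122+T-bet- libraries, against 9.08% and 9.86% in T-bet int and 9.35% and 10.02% in T-bet high libraries. The T-bet- and T-bet+ stages of this mouse thus did not overlap. In the C-mycfl/fl mouse they did, at 8.50% to 9.94% in CD122-T-bet- and 8.88% to 9.29% in CD122+T-bet- libraries. T-bet int libraries there had 8.57% to 9.55% and T-bet high libraries 8.41% to 9.30%. In T-bet high over T-bet int cells, log2 ratios of 61 members had a Pearson correlation of 0.097 between the TBGR and C-mycfl/fl mice, with 43 of the same sign, against 0.492 over 1974 genes, as a description across genes. In the same step of the TBGR mouse, where 19.1% of all genes were called lower and 17.9% higher, 7 of 10 carriers of the mitochondrial membranes were called lower (median -0.96), among them Atpif1 (-1.51), the inhibitor of ATP synthase, and Mpc1 (-1.18), a subunit of the pyruvate carrier, while 8 of 74 cytosolic ribosomal protein genes were called higher and 2 lower (0.17).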
